A study of Mus musculus with 4 samples.

Results

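The genes described here encode the machinery that starts transcription of messenger RNA, namely RNA polymerase II, the promoter-binding complex TFIID, the other general transcription factors and the Mediator co-activator. They were taken from the deposited tables by symbol, as all symbols that begin with Polr2 and a letter from a to m, with Med and a digit, with Taf and a digit or with Gtf2, together with Tbp. That gave 80 genes of the 19564 symbols listed. By complex they are 12 RNA polymerase II subunits, 17 TFIID genes, 13 genes of TFIIA, TFIIB, TFIIE, TFIIF and TFIIH, and 29 Mediator genes. The symbol rule also takes 9 genes whose proteins work elsewhere, and these are described apart: 3 subunits of the RNA polymerase I factor SL1 (Taf1b, Taf1c and Taf1d), 2 TAF paralogs of the SAGA co-activator (Taf5l and Taf6l), the FET-family RNA-binding protein Taf15, and the 3 genes of the TFII-I family. It misses the Mediator kinases and cyclin C, which are given beside the kinase module.

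The samples were erythroid precursors from mouse fetal livers at embryonic day 14.5, stained for the erythroid protein TER119 and for the transferrin receptor CD71 and separated by flow cytometry into 4 populations. In order of maturation, and as the submitters describe them, R2 holds proerythroblasts and early basophilic erythroblasts, R3 early and late basophilic erythroblasts, R4 mainly polychromatophilic and orthochromatophilic erythroblasts, and R5 late orthochromatophilic erythroblasts and reticulocytes. RNA came from freshly sorted, uncultured cells, and its polyadenylated fraction was sequenced as 1 library per population. The mouse strain, the number of livers and whether they were pooled are not given in the sources used; no population carried an allele or a treatment that the labels name, and with 1 library per population no difference below has a replicate check.

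RNA polymerase II reads every protein-coding gene, and its largest subunit carries the C-terminal repeat domain whose phosphorylation marks the passage from initiation to elongation. TFIID, built of the TATA-binding protein and its associated factors (TAFs), recognises the core promoter; TFIIA, TFIIB, TFIIE, TFIIF and TFIIH then complete the preinitiation complex and open the DNA. Mediator bridges enhancer-bound activators and the polymerase through its head, middle and tail, while a detachable kinase module of Med12, Med13 or Med13l, cyclin C and Cdk8 or Cdk19 blocks its contact with the polymerase. Erythroblasts condense their chromatin, lose most transcription and expel the nucleus, so reticulocytes carry only RNA made earlier.

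The deposited values are RPKM, reads scaled to gene length and library size, so that levels of different genes can be set side by side per length. Read totals implied by the values were about 23000000 at R2, 25600000 at R3, 27400000 at R4 and 20700000 at R5. Globin genes took 5.52% of summed RPKM at R2, 59.4% at R3, 80.4% at R4 and 81.9% at R5, and RPKM of every other gene is relative to that total. Each log2 ratio is therefore given as deposited and, where it matters, after median scaling, in which a library's values are divided by its median ratio to a geometric-mean reference built from 2745 genes that reached 5 RPKM throughout. For the 9942 genes that reached 1 RPKM in some library, the median log2 ratio of RPKM + 1 for R5 against R2 was -1.65 as deposited, -0.42 after median scaling and -0.68 with the 8 globin genes removed and the rest rescaled. All 9 erythroid markers listed were detected, with summed levels of 11630 RPKM at R2, 162777 at R3, 283385 at R4 and 356820 at R5. Most of that sum is Hba-a1 and Hbb-b1, at 306178 and 46936 RPKM in R5, and 3 of the 9 markers were lower in R5 than in R2: Gata1 (90.5 RPKM in R5, 119.9 in R2), Tfrc (32.8 RPKM in R5, 52.1 in R2) and Epor (109 RPKM in R5, 144 in R2). All 11 granulocyte markers listed were at least 2-fold lower in R5 than in R2, with summed levels of 6232 RPKM at R2, 439 at R3, 240.4 at R4 and 479 at R5, so granulocyte transcripts moved with the same contrast, and their part in the results below was not tested. Macrophage markers (8 of 8 detected) summed to 89.7 RPKM at R2, 49.5 at R3, 20.6 at R4 and 48.7 at R5. Hepatocyte markers (7 of 7 detected) summed to 224 RPKM at R2, 546 at R3, 186 at R4 and 399 at R5, megakaryocyte markers (6 of 6) to 38.2 RPKM at R2, 43.3 at R3, 23.0 at R4 and 67.3 at R5, and the 5 matched lymphoid markers, with Cd3e at 0, to 21.2 RPKM at R2, 1.67 at R3, 0.64 at R4 and 2.05 at R5. Their part in the results was not tested either.

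Of the 80 genes, 78 reached 1 RPKM in at least 1 library. The other 2, Taf7l and Gtf2a1l, are germ-cell paralogs of a TFIID and a TFIIA subunit and were listed at 0 in all 4 libraries. In R5 against R2, 71 of the 78 were lower by 2-fold or more and 0 were higher by as much in the deposited values, where 76.9% of all genes past the filter were lower and 2.74% higher. The median log2 ratio of the 78 was -1.84, which is 0.18 below that of all genes. After median scaling 7 were lower and 2 higher, against 13.7% and 9.42% of all genes, and the 78 divided evenly around the all-gene median, with 39 above it and 39 below. With globins removed 27 were lower and 0 higher, against 29.8% and 7.35%. As a whole, then, transcripts of the initiation machinery stood in R5 relative to R2 about where the median transcript stood. In bulk RNA, fewer cells of a type and less RNA per cell cannot be told apart.

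Their levels were highest in R2 for 75 of the 78 (96.2%, against 86.2% of all genes) and lowest in R4 for 63 (80.8%, against 73.2%). The exceptions at the top were Med12 and Med13l, highest in R3, and Polr2k, highest in R5. After median scaling 52 of the 78 (66.7%, against 62.4% of all genes) were highest in R2. The median level of the 80 genes was 18.0 RPKM at R2, 7.68 at R3, 2.96 at R4 and 4.53 at R5, and the highest was that of Polr2f in R2 and of Taf10 in the other 3 populations.

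**Figure D1:**
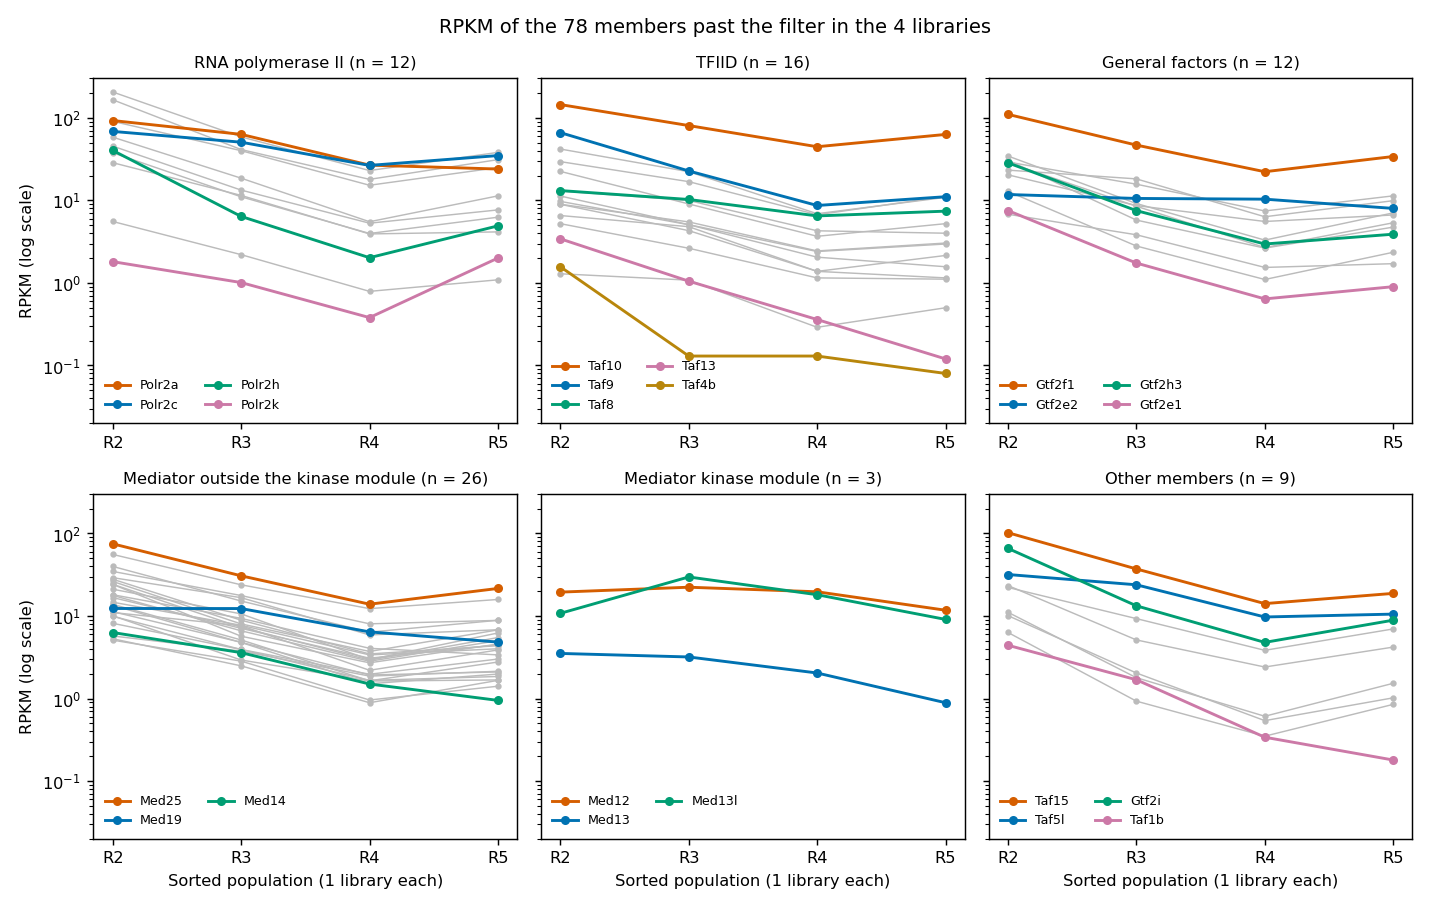
RPKM on a log scale (y axis) of the 78 genes past the filter in the 4 sorted populations (x axis, 1 library each), by complex; coloured lines are genes named in each panel and grey lines the others. Most lines are lowest at R4, whereas Med13l peaks at R3 with 29.7 RPKM and the deposited values of Gtf2e2 through R4 lie close together.

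The RNA polymerase II subunits lay lower in R5 than the members as a whole. Of the 12, 10 were at least 2-fold lower in R5 than in R2, where 76.9% of all genes were. The median log2 ratio of the 12 was -2.32, which is 0.67 below the all-gene median, with 9 of 12 beneath it. After median scaling 2 of the 12 were lower and 1 higher, against 13.7% and 9.42% of all genes, with a median of -0.76. The 7 subunits used by this polymerase alone had a median of -2.27, and the 5 shared with RNA polymerases I and III one of -2.37. Promoters of the largest subunit and of the subunit with the highest level are shown here because both genes had high R2 levels but different later courses; they come from RefSeq, build GRCm38.p6, and run from 250 bases before the annotated start to 50 bases after it. Polr2a lies on the minus strand at chr11:69758584-69758883, and capitals mark the TATA motif TATAAA, whose first base is at position -33 from the start. Polr2f lies on the plus strand at chr15:79141075-79141374, and capitals mark CCGGAAG, a core recognised by ETS-family factors, at position -17. A motif match describes the letters and does not show a site in use.
Polr2a: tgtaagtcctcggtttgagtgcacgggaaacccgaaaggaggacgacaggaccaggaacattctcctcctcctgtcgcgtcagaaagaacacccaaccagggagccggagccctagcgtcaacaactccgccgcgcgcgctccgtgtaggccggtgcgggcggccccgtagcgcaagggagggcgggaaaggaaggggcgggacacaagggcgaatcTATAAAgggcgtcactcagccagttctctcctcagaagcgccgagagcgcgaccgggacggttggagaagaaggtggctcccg
Polr2f: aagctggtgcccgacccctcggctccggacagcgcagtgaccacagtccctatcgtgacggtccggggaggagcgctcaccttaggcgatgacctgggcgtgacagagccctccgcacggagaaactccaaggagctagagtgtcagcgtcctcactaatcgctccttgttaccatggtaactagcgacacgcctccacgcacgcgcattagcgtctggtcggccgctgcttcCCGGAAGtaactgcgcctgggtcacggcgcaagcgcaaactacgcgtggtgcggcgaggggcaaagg

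Polr2a, which encodes the largest subunit, had 92.7 RPKM at R2, 63.0 at R3, 26.7 at R4 and 24.0 at R5. As deposited, R2 and R3 were well above R4 and R5, and R5 was the lowest of the 4. Its log2 ratio for R5 against R2 was -1.91 as deposited and -0.34 after median scaling. Polr2b, the partner of Polr2a in the catalytic cleft, had 28.6 RPKM at R2, 11.5 at R3, 3.92 at R4 and 4.15 at R5, a log2 ratio of -2.52 for R5 against R2. The catalytic pair thus diverged: relative to the median of the 12 subunits in the same library, a ratio that no scaling of libraries alters, Polr2a was 1.79 at R2, 3.95 at R3, 4.95 at R4 and 2.52 at R5. The same ratio for Polr2b was 0.551 at R2, 0.720 at R3, 0.726 at R4 and 0.437 at R5.

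Polr2c, the RPB3 assembly subunit, was, as deposited, the nearest to its R2 level among the subunits other than Polr2k, with 68.5 RPKM at R2, 50.7 at R3, 26.5 at R4 and 34.9 at R5. Its log2 ratio for R5 against R2 was -0.95 as deposited but 0.61 after median scaling, so its direction depends on the scaling; after that scaling Polr2j (-0.25) and Polr2a (-0.34) lay nearer 0. Over the subunit median it was 1.32 at R2, 3.18 at R3, 4.91 at R4 and 3.67 at R5. Its dimer partner RPB11 is encoded by Polr2j, which had 90.6 RPKM at R2, 40.0 at R3, 15.2 at R4 and 24.9 at R5. The stalk subunits Polr2d and Polr2g, which form a dimer at the RNA exit, ran together, and both had a log2 ratio of -2.42 for R5 against R2. Polr2d had 37.7 RPKM at R2, 11.1 at R3, 3.97 at R4 and 6.25 at R5, and Polr2g had 45.4 RPKM at R2, 13.3 at R3, 5.29 at R4 and 7.66 at R5. Polr2i, the RPB9 subunit tied to transcript proofreading in yeast, had 58.4 RPKM at R2, 18.6 at R3, 5.51 at R4 and 11.3 at R5.

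Among the shared subunits Polr2f (RPB6) and Polr2e (RPB5) were the most abundant. Polr2f had 206 RPKM at R2, 58.7 at R3, 23.0 at R4 and 38.1 at R5, and Polr2e had 165 RPKM at R2, 41.3 at R3, 18.0 at R4 and 31.1 at R5. Their ratios to the subunit median changed little, from 3.68 to 4.25 for Polr2f and from 2.59 to 3.33 for Polr2e over the 4 libraries. Polr2h (RPB8) had the lowest log2 ratio of RPKM + 1 of all 78 genes, -2.80 as deposited and -1.31 after median scaling. Its levels were 40.3 RPKM at R2, 6.39 at R3, 2.02 at R4 and 4.91 at R5, and R5 kept 12.2% of the R2 value. By plain RPKM, R5 kept a smaller share for Taf13 (3.51%), Taf1b (4.07%), Taf4b, Taf1d and Gtf2e1. These genes had lower levels in R5 than Polr2h, and the added 1 RPKM narrows their ratios more. Polr2l (RPB10) was low throughout, with 5.55 RPKM at R2, 2.20 at R3, 0.79 at R4 and 1.09 at R5.

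Polr2k (RPB12) was listed at 1.81 RPKM at R2, 1.01 at R3, 0.38 at R4 and 2.0 at R5, the highest value in R5. Its values are whole multiples of 1 read over 193 countable bases, and stand for about 8 reads at R2, 5 at R3, 2 at R4 and 8 at R5. The exact 95% Poisson intervals, which cover counting error alone, were 3.45 to 15.76 reads in R2, 1.62 to 11.67 in R3, 0.24 to 7.22 in R4 and 3.45 to 15.76 in R5, and all 4 overlap. No order of its levels can be read at this depth.

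TFIID followed the median gene more closely than the polymerase subunits did. Of its 17 genes 16 were past the filter. In R5, 14 of the 16 were at least 2-fold lower than in R2, where 76.9% of all genes were. The median log2 ratio of the 16 was -1.60, 0.06 above the all-gene median. After median scaling 1 of the 16 was 2-fold lower, against 13.7% of all genes. Tbp, the TATA-binding protein, had 11.3 RPKM at R2, 5.08 at R3, 2.40 at R4 and 2.96 at R5, close to the TFIID median in every library. Taf1, the largest TAF and the scaffold around Tbp, had 6.55 RPKM at R2, 4.80 at R3, 1.38 at R4 and 1.15 at R5. Taf2, which contacts the initiator element, had 9.72 RPKM at R2, 5.07 at R3, 2.05 at R4 and 1.57 at R5. Both were lowest in R5.

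The highest TFIID transcript was Taf10, a histone-fold TAF that also serves in SAGA, with 145 RPKM at R2, 80.6 at R3, 44.6 at R4 and 62.9 at R5. Its log2 ratio for R5 against R2 was -1.19 as deposited and 0.40 after median scaling. Over the TFIID median it was 14.9 at R2, 15.9 at R3, 18.6 at R4 and 21.3 at R5. Taf8, the histone-fold partner of Taf10, was likewise nearer to its R2 level, with 13.1 RPKM at R2, 10.3 at R3, 6.48 at R4 and 7.40 at R5 and log2 ratios of -0.75 as deposited and 0.69 after median scaling. Taf3, the other histone-fold partner of Taf10 and a reader of lysine-methylated histone H3, did not share this course: it had 8.96 RPKM at R2, 4.30 at R3, 1.38 at R4 and 2.15 at R5, a log2 ratio of -1.66.

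Taf9 lay at the other end, with 66.2 RPKM at R2, 22.7 at R3, 8.67 at R4 and 11.1 at R5 and a log2 ratio of -2.48 for R5 against R2. Its exons overlap those of Ak6 on the same strand, so reads of these 2 genes could be split in either way. Its histone-fold partner Taf6 had 41.9 RPKM at R2, 22.3 at R3, 6.89 at R4 and 10.9 at R5. Taf12 had 29.5 RPKM at R2, 16.9 at R3, 6.69 at R4 and 11.2 at R5, and its partner Taf4a had 13.0 RPKM at R2, 9.96 at R3, 4.28 at R4 and 4.0 at R5, so that Taf12 was higher in R5 than in R4 and Taf4a slightly lower. Taf11 had 22.5 RPKM at R2, 9.05 at R3, 3.67 at R4 and 5.22 at R5, while its partner Taf13 had 3.42 RPKM at R2, 1.05 at R3, 0.36 at R4 and 0.12 at R5. R5 kept 3.51% of the R2 level of Taf13, for which annotated length gives about 6.08 reads in R5 and 192 in R2. Taf5, the WD-repeat subunit, had 8.97 RPKM at R2, 5.48 at R3, 2.44 at R4 and 3.04 at R5, and Taf7, which restrains Taf1, had 5.22 RPKM at R2, 2.63 at R3, 1.15 at R4 and 1.11 at R5.

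The TAF paralogs kept a fixed rank order within each pair. Taf4b, known from gonads and B cells, made up 10.8% of the summed Taf4a and Taf4b level at R2, 1.29% at R3, 2.95% at R4 and 1.96% at R5; its own levels were 1.57 RPKM at R2, 0.13 at R3, 0.13 at R4 and 0.08 at R5. Taf9b made up between 1.91% (in R2) and 4.54% (in R3) of the summed Taf9 and Taf9b level, with 1.29 RPKM at R2, 1.08 at R3, 0.29 at R4 and 0.50 at R5. The SAGA paralog Taf5l was above Taf5 in every library, with 77.6% to 81.3% of their sum, and had 31.8 RPKM at R2, 23.9 at R3, 9.73 at R4 and 10.5 at R5. The SAGA paralog Taf6l held 29.5% to 39.1% of its sum with Taf6 and had 22.2 RPKM at R2, 9.30 at R3, 3.84 at R4 and 6.97 at R5.

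Among the general factors 11 of the 12 past the filter were at least 2-fold lower in R5 than in R2, with a median log2 ratio of -1.86, where 76.9% of all genes were. After median scaling 1 of the 12 was, against 13.7% of all genes, and with globins removed 4 were, against 29.8%. The TFIIH core subunits had a median of -2.14, 0.49 below the all-gene median, and 2-fold lower values were seen for 5 of 5 in the deposited data and for 1 of 5 after median scaling. Gtf2h1 had 30.6 RPKM at R2, 5.77 at R3, 2.64 at R4 and 4.74 at R5, and the largest part of its difference lay between R3 and R2, a log2 ratio of -2.22 as deposited and -1.36 after median scaling. Gtf2h4, which anchors the XPB helicase, had 34.5 RPKM at R2, 9.16 at R3, 3.30 at R4 and 7.05 at R5, and Gtf2h3 had 28.5 RPKM at R2, 7.51 at R3, 2.96 at R4 and 3.89 at R5. Gtf2h2 had 12.9 RPKM at R2, 2.80 at R3, 1.10 at R4 and 2.35 at R5. Gtf2h5, the small subunit that stabilises TFIIH for DNA repair, had the highest log2 ratio of the 5, -1.29 as deposited and 0.22 after median scaling, with 29.2 RPKM at R2, 15.7 at R3, 7.44 at R4 and 11.3 at R5.

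The median of the 7 TFIIA, TFIIB, TFIIE and TFIIF genes past the filter was -1.52, 0.13 above the all-gene median. Both TFIIE subunits were present but took different courses. Gtf2e2, the beta subunit, had 11.8 RPKM at R2, 10.6 at R3, 10.3 at R4 and 7.99 at R5. The deposited values through R4 were thus close together, whereas the median-scaled values were 5.41 at R2, 8.95 at R3, 18.6 at R4 and 11.2 at R5, with R4 the highest. Gtf2e1, the alpha subunit, had 7.53 RPKM at R2, 1.74 at R3, 0.64 at R4 and 0.90 at R5. The log2 ratios for R5 against R2 were -0.51 for Gtf2e2 and -2.17 for Gtf2e1 as deposited, and 0.92 and -0.98 after median scaling.

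TFIIF escorts the polymerase to the promoter. Its large subunit gene Gtf2f1 had 110 RPKM at R2, 46.7 at R3, 22.2 at R4 and 34 at R5, and its small subunit gene Gtf2f2 had 28.6 RPKM at R2, 8.49 at R3, 2.68 at R4 and 5.35 at R5. Gtf2b, the single TFIIB gene, which positions the polymerase at the start site, had 20.4 RPKM at R2, 8.65 at R3, 5.55 at R4 and 6.65 at R5. In TFIIA, which steadies Tbp on DNA, the precursor gene Gtf2a1 had 6.79 RPKM at R2, 3.83 at R3, 1.54 at R4 and 1.71 at R5 and the small subunit gene Gtf2a2 had 23.2 RPKM at R2, 18.2 at R3, 6.33 at R4 and 9.91 at R5.

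Outside the kinase module, all 26 Mediator genes were at least 2-fold lower in R5 than in R2 as deposited, where 76.9% of all genes were, with a median log2 ratio of -1.83 and a range from -2.43 (Med22) to -1.10 (Med7). After median scaling 0 of the 26 were 2-fold lower, against 13.7% of all genes, and 4 were above 0. With globins removed 6 were 2-fold lower, against 29.8% of all genes. By module the deposited medians were -2.13 for the 7 head genes, -1.65 for the 9 middle genes, -1.86 for the 5 tail genes and -1.65 for Med27 to Med30. The tail, which receives activators, held the most abundant transcripts: Med25 had 74.9 RPKM at R2, 30.7 at R3, 13.9 at R4 and 21.6 at R5, Med24 had 55.7 RPKM at R2, 23.9 at R3, 12.3 at R4 and 15.9 at R5, and Med16 had 39.9 RPKM at R2, 15.2 at R3, 6.38 at R4 and 8.87 at R5. Med14, the backbone that joins the modules, had 6.31 RPKM at R2, 3.60 at R3, 1.5 at R4 and 0.95 at R5. Med1, the middle subunit that binds nuclear receptors and GATA1, had 9.93 RPKM at R2, 3.93 at R3, 1.66 at R4 and 1.85 at R5, a log2 ratio of -1.94 for R5 against R2. Head genes, which bind the polymerase, ranged between 5.10 (Med18) and 29.1 RPKM (Med8) at R2, between 2.84 and 16.7 at R3, between 0.96 and 5.90 at R4, and between 1.41 and 6.81 at R5, with Med18 lowest and Med8 highest throughout. Middle genes ranged between 5.30 (Med31) and 26.2 RPKM (Med10) at R2, between 2.49 and 12.3 at R3, between 0.89 and 6.42 at R4, and between 1.66 (Med31) and 6.79 RPKM (Med10) at R5. Med27 to Med30 lay between 8.16 and 21.1 RPKM at R2, between 2.93 and 10.6 at R3, between 1.63 and 3.08 at R4, and between 1.68 and 6.23 at R5. In that set Med30 had 21.1 RPKM at R2, 10.6 at R3, 2.96 at R4 and 6.23 at R5, and the head gene Med6 had 11.02 RPKM at R2, 7.63 at R3, 2.20 at R4 and 3.88 at R5, so both were clearly lowest at R4. The middle gene Med19 stood apart early on, with 12.3 RPKM in both R2 and R3, 6.42 in R4 and 4.83 in R5.

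The kinase module took a different course from the rest of Mediator. Med12, Med13 and Med13l had log2 ratios for R5 against R2 of -0.68, -1.26 and -0.22 as deposited, all above the all-gene median, and the median of the 3 was 0.97 above it. After median scaling the ratios were 0.81, -0.22 and 1.20, so for Med12 and Med13l the direction depends on the scaling. Promoters of Med13l and Med12 are shown because these genes were the only members with more RPKM in R3 than in R2 as deposited. After median scaling 23 of the 78 members past the filter had a log2 ratio above 0 for R3 against R2, and with globins removed 16. The sequences are from RefSeq, in the same build and window. Med13l lies on the plus strand at chr5:118560469-118560768, and capitals mark AGATAA, a core recognised by GATA factors, at position -177 from the start. Med12 lies on the plus strand at chrX:101273841-101274140, and none of the 5 motifs searched occurs in its window, so it holds no capitals.
Med13l: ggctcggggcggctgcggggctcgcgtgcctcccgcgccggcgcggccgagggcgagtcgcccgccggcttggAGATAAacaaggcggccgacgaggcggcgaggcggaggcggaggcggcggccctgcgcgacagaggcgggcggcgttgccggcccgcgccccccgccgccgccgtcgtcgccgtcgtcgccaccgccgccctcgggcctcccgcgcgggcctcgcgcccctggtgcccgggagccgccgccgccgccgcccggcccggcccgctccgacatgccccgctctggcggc
Med12: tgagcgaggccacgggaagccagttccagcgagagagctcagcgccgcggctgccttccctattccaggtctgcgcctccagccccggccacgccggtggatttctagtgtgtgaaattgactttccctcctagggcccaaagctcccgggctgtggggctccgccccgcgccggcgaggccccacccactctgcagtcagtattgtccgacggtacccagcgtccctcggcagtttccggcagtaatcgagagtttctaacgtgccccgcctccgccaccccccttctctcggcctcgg

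Med13l, which links the kinase to core Mediator, had 10.8 RPKM at R2, 29.7 at R3, 18.1 at R4 and 9.09 at R5. R3 and R4 were above both R2 and R5. It was the single gene of the 78 at least 2-fold higher in R3 than in R2 as deposited, with a log2 ratio of 1.38, or 2.14 after median scaling. Med12, which activates the kinase through cyclin C, had 19.5 RPKM at R2, 22.3 at R3, 19.7 at R4 and 11.8 at R5. As deposited, its levels in the first 3 populations were close together and R5 was the lowest; median-scaled values were 8.95 at R2, 18.9 at R3, 35.4 at R4 and 16.4 at R5, with R2 the lowest. Its exons overlap the annotated gene Gm21986 on the same strand, so part of its reads could belong there. Med13, the paralog of Med13l, had 3.52 RPKM at R2, 3.19 at R3, 2.04 at R4 and 0.89 at R5. Med13l held 75.4% of the summed Med13 and Med13l level at R2, 90.3% at R3, 89.9% at R4 and 91.1% at R5.

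Against the median of the 26 other Mediator genes in the same library, a comparison that does not depend on library scaling, Med12 was 1.24 at R2, 3.11 at R3, 6.83 at R4 and 2.80 at R5. The same ratio for Med13l was 0.685 at R2, 4.14 at R3, 6.30 at R4 and 2.17 at R5, and for Med13 it was 0.224 at R2, 0.444 at R3, 0.710 at R4 and 0.212 at R5. All 3 genes were thus highest in R4 relative to the rest of the complex. The kinase itself moved likewise: Cdk8 had 28.9 RPKM at R2, 26.5 at R3, 19.7 at R4 and 15.2 at R5, and its ratio to the other Mediator genes was 1.84 at R2, 3.69 at R3, 6.85 at R4 and 3.62 at R5. Cdk19, listed under its older symbol Cdc2l6, had 4.57 RPKM at R2, 3.79 at R3, 2.40 at R4 and 2.02 at R5, with ratios of 0.291 at R2, 0.527 at R3, 0.835 at R4 and 0.482 at R5. Cyclin C (Ccnc) was low, with 2.04 RPKM at R2, 1.36 at R3, 0.93 at R4 and 0.74 at R5, with ratios of 0.130 at R2, 0.189 at R3, 0.323 at R4 and 0.177 at R5. Of these 6 genes, Med13 was the exception in ending slightly below its R2 ratio.

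Between R5 and R4 the module again differed from most genes, in the other direction. The log2 ratios were -0.70 for Med12, -0.69 for Med13 and -0.92 for Med13l as deposited, where the all-gene median was 0.27. After median scaling these became -1.06, -1.06 and -1.30. By RPKM + 1 these 3 were the only genes of the 78 at least 2-fold lower, against 2.56% of all genes. The added 1 RPKM narrows the ratios of low genes. Without it, median-scaled values were also over 2-fold lower for Med14 (2.70 in R4, 1.33 in R5) and Taf13 (0.65 in R4, 0.17 in R5). The same held for Taf1b (0.61 in R4, 0.25 in R5) and Taf4b (0.23 in R4, 0.11 in R5). With globins removed the log2 ratios of Med12, Med13 and Med13l were -0.90, -0.93 and -1.13. Estimated reads behind the values, from annotated transcript length, were 1659 in R5 and 3671 in R4 for Med12, 1608 in R5 and 4240 in R4 for Med13l, and 194.5 in R5 and 590 in R4 for Med13. Summed granulocyte markers were 479 RPKM in R5 and 240.4 in R4, and their part in this step was not tested. The partner genes were nearer 0, with log2 ratios of -0.36 for Cdk8, -0.17 for Cdc2l6 and -0.15 for Ccnc as deposited. After median scaling these were -0.72, -0.48 and -0.40. All 3 partners lay below the all-gene median, as deposited and after median scaling.

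**Figure D2:**
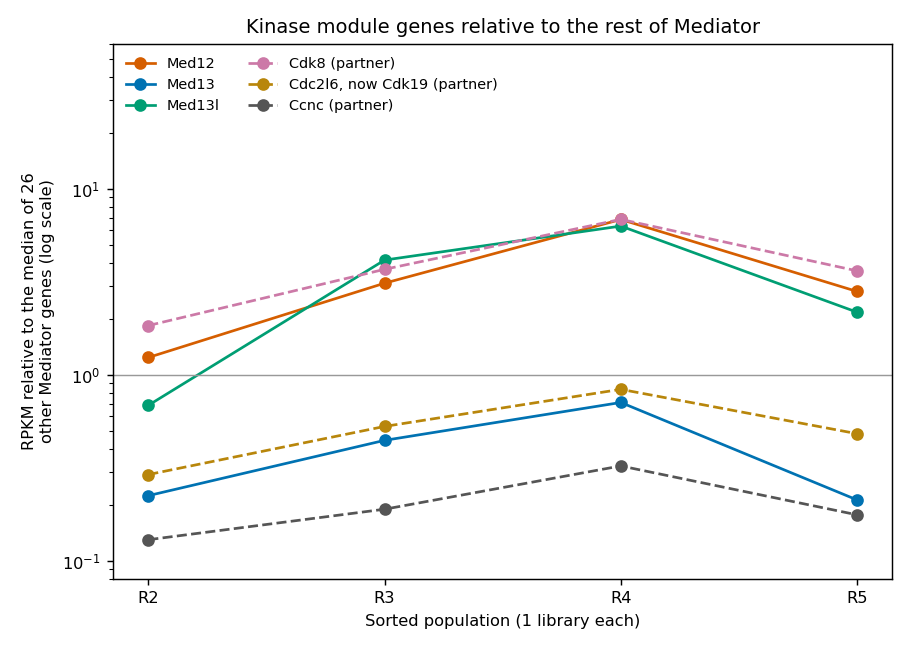
RPKM of 6 kinase module genes divided by the median RPKM of the 26 other Mediator genes of the same library (y axis, log scale) in the 4 populations (x axis); solid lines are Med12, Med13 and Med13l and dashed lines their partners. All 6 lines are highest at R4, where Cdk8 reaches 6.85, Med12 6.83 and Med13l 6.30. The median used as divisor is lowest at R4, and some of the 26 other genes are also highest there by this ratio.

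The SL1, TFII-I family and Taf15 symbols that the rule also takes were lower in R5 than in R2. In the RNA polymerase I factor SL1, Taf1c had 23.4 RPKM at R2, 5.13 at R3, 2.41 at R4 and 4.20 at R5, Taf1d had 10.1 RPKM at R2, 2.04 at R3, 0.54 at R4 and 1.02 at R5, and Taf1b had 4.42 RPKM at R2, 1.69 at R3, 0.34 at R4 and 0.18 at R5, with a median log2 ratio of -2.23 for R5 against R2. The TFII-I family, signal-responsive factors deleted in human Williams syndrome, had a median of -2.26 as deposited, where that of all genes was -1.65. After median scaling the medians were -1.22 for SL1 and -0.96 for the TFII-I family, against -0.42 for all genes. Gtf2i had 65.9 RPKM at R2, 13.3 at R3, 4.79 at R4 and 8.90 at R5, and most of its difference lay between R3 and R2, a log2 ratio of -2.23 as deposited and -1.35 after median scaling. Gtf2ird1 had 11.1 RPKM at R2, 1.79 at R3, 0.61 at R4 and 1.53 at R5, and Gtf2ird2, with 6.32 RPKM at R2, 0.93 at R3, 0.35 at R4 and 0.85 at R5, held 34.2% to 36.5% of their sum in every library. These 2 paralogs kept their proportion while their deposited levels were more than 7-fold lower in R5 than in R2. Median-scaled values differed less, at 5.10 in R2 and 2.14 in R5 for Gtf2ird1 and 2.91 in R2 and 1.19 in R5 for Gtf2ird2. Taf15 had 102 RPKM at R2, 37.2 at R3, 14.1 at R4 and 18.8 at R5.

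Set beside the other polymerases, the 5 RNA polymerase I subunits measured had a median log2 ratio of -2.34 for R5 against R2 and the 10 RNA polymerase III subunits one of -2.06, and all 15 were at least 2-fold lower as deposited, where 76.9% of all genes were. After median scaling 3 of the 5 and 1 of the 10 were, against 13.7% of all genes. With globins removed 4 of the 5 and 6 of the 10 were, against 29.8%. The difference between these values and the median of -2.32 of RNA polymerase II has no test with 1 library per population. Between R3 and R2 the medians were -2.18 for RNA polymerase I and -1.48 for RNA polymerase III, against -1.25 for the 7 subunits of RNA polymerase II alone and -1.79 for the 5 shared ones. Of 34 partner genes listed (Mediator kinases, TFIIH helicases and kinase, TBP relatives, polymerase assembly factors and SAGA), 33 were matched and 32 were past the filter. Of those, 28 were at least 2-fold lower in R5 and 0 at least 2-fold higher, where 76.9% and 2.74% of all genes were, with a median of -1.84, equal to that of the 78 genes. After median scaling 7 of the 32 were lower, against 13.7% of all genes, and with globins removed 12, against 29.8%. The lowest were the SAGA acetyltransferase gene Kat2a, with 50.6 RPKM at R2, 5.54 at R3, 2.65 at R4 and 6.04 at R5, the TFIIH helicase gene Ercc2 (39.9 RPKM at R2, 7.51 at R3, 2.83 at R4 and 4.91 at R5) and the assembly factor gene Rpap3 (16.7 RPKM at R2, 2.74 at R3, 1.37 at R4 and 1.61 at R5). The highest was Kat2b, the paralog of Kat2a, with 2.41 RPKM at R2, 3.50 at R3, 1.35 at R4 and 1.28 at R5, followed by Ccnc and Cdc2l6. This order is by RPKM + 1 as deposited, where the added 1 RPKM narrows the ratios of low genes. After median scaling Cdk8 was highest at 0.63, followed by Kat2b at 0.40 and Cdc2l6 at 0.30, with Ccnc at 0.07. Kat2a and Kat2b had log2 ratios of -2.87 and -0.58 for R5 against R2 as deposited. Tbpl2, an oocyte relative of Tbp, was listed at 0 in all 4 libraries.

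**Figure D3:**
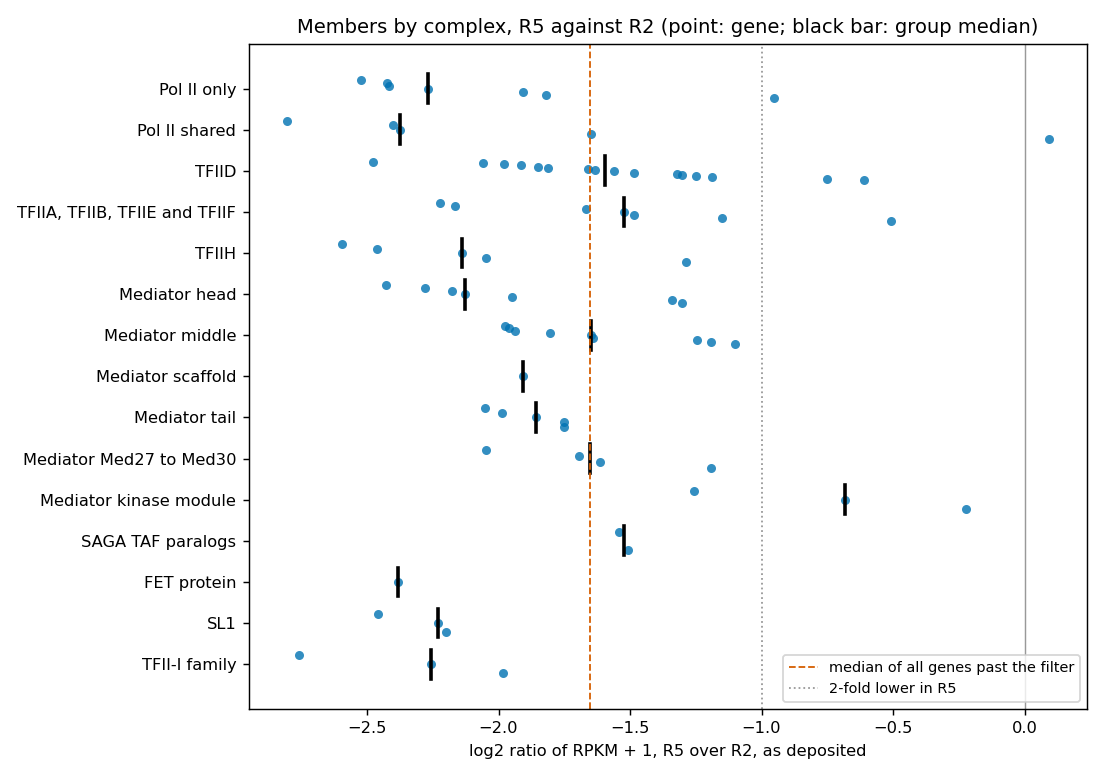
Log2 ratio of RPKM + 1 in R5 over R2 as deposited (x axis) for each gene past the filter (points), by group (y axis), with group medians as black bars, the all-gene median of -1.65 as a dashed line and the 2-fold limit as a dotted line. The kinase module median of -0.68 is the group median nearest 0, and those of the polymerase subunits lie left of the dashed line.

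The 3 steps share libraries with each other and with the comparison of R5 against R2, so their values are not independent. By step, 44 of the 78 genes were at least 2-fold lower and 1 higher in R3 than in R2, where 55.1% of all genes were lower and 3.81% higher. After median scaling 10 were lower and 2 higher, against 18% and 8.38% of all genes, and with globins removed 13 were lower and 1 higher, against 22.8% and 7.81%. Lowest as deposited were Polr2h (-2.48), Gtf2i (-2.23), Gtf2h1 (-2.22), Gtf2ird1 (-2.12) and Taf1c (-1.99). The TFIID median was -0.83 and that of TFIIH -1.80, so these groups, which act at the same promoters, were spread over about 1 log2 unit. At the upper end of this step stood Med13l, Med12, Med19, Gtf2e2 and Taf8.

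In R4 against R3, 37 of the 78 were lower by 2-fold or more and 0 were higher, against 32.1% and 0.493% of all genes. The median log2 ratio was -0.99, where that of all genes was -0.77, and 62 of the 78 lay below the all-gene median. After median scaling 0 were 2-fold lower and 0 higher, against 0.382% and 4.26% of all genes, and with globins removed 2 were lower and 0 higher, against 2.83% and 1.98%. With median scaling the median of the 78 was -0.17, against -0.06 for all genes. The RNA polymerase II subunits had a median of -1.24 as deposited, with 11 of 12 below the all-gene median. Polr2i (-1.59), Taf6 (-1.56), Med30 (-1.55), Med6 (-1.43) and Gtf2a2 (-1.39) were lowest. Gtf2e2 (-0.03), Med12 (-0.18), Gtf2b (-0.56), Taf8 (-0.59) and Med13l (-0.68) were highest, and Gtf2e2, Med12, Gtf2b, Taf8 and Med13l were all above 0 after median scaling.

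In R5 against R4 the values of most members were a little higher: 63 of the 78 had a log2 ratio above 0 as deposited, with a median of 0.39 against 0.27 over all genes. The 2-fold counts were 1 higher (Polr2k, at about 8 reads in R5 and 2 in R4) and 0 lower, against 3.97% and 0.604% of all genes. After median scaling 3 were lower and 1 higher, against 2.56% and 1.75% of all genes, and with globins removed 1 was lower and 1 higher, against 1.58% and 2.98%. The median after median scaling was 0.11, against 0.07 for all genes. The RNA polymerase II subunits had a median of 0.61 as deposited and TFIIH one of 0.66. Polr2i (0.92), Gtf2h4 (0.90), Med30 (0.87), Gtf2f2 (0.79) and Gtf2i (0.77) were highest among members with at least 5 RPKM in either library, and Med13l (-0.92), Med12 (-0.70), Med19 (-0.35), Gtf2e2 (-0.34) and Polr2a (-0.15) were lowest.

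Transcript length moved with this last step and, more weakly and with the opposite sign, with the earlier steps. Over 77 members the Spearman correlation across genes between annotated transcript length and the log2 ratio of R5 against R4 was -0.53, and -0.47 without the 3 kinase module genes. Over 8683 genes past the filter it was -0.35. For R3 against R2 as deposited the correlation over the members was 0.32, or 0.24 without the kinase module genes. For R4 against R3 it was 0.30, or 0.23 without them. Over the 8683 genes the correlations for these earlier steps were 0.06 and 0.10. All of these are descriptions across genes that share the same 4 libraries. The 15 members with their lowest level in R5 had a median transcript of 4398 bases, against 1950 bases for the 63 lowest in R4. They were Polr2a, Taf1, Taf2, Taf4a, Taf4b, Taf7, Taf13, Gtf2e2, Med12, Med13, Med13l, Med14, Med19, Med20 and Taf1b. The kinase module genes are among the longest, at 6813 bases for Med12, 8539 for Med13l and 10546 for Med13. The other 5 members of at least 5000 bases (Polr2a, Taf1, Taf2, Taf4b and Med1) had log2 ratios of R5 against R4 between -0.25 and 0.10, above all 3 kinase module genes. The added 1 RPKM narrows the ratio of a low gene such as Taf4b, at 0.13 RPKM in R4. Its plain fold of R5 over R4 was 0.62, near the 0.60 of Med12. For R3 against R2 the same 5 lay between -1.19 and -0.38, below all 3 kinase module genes. The part of length in these differences was not tested.

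**Figure D4:**
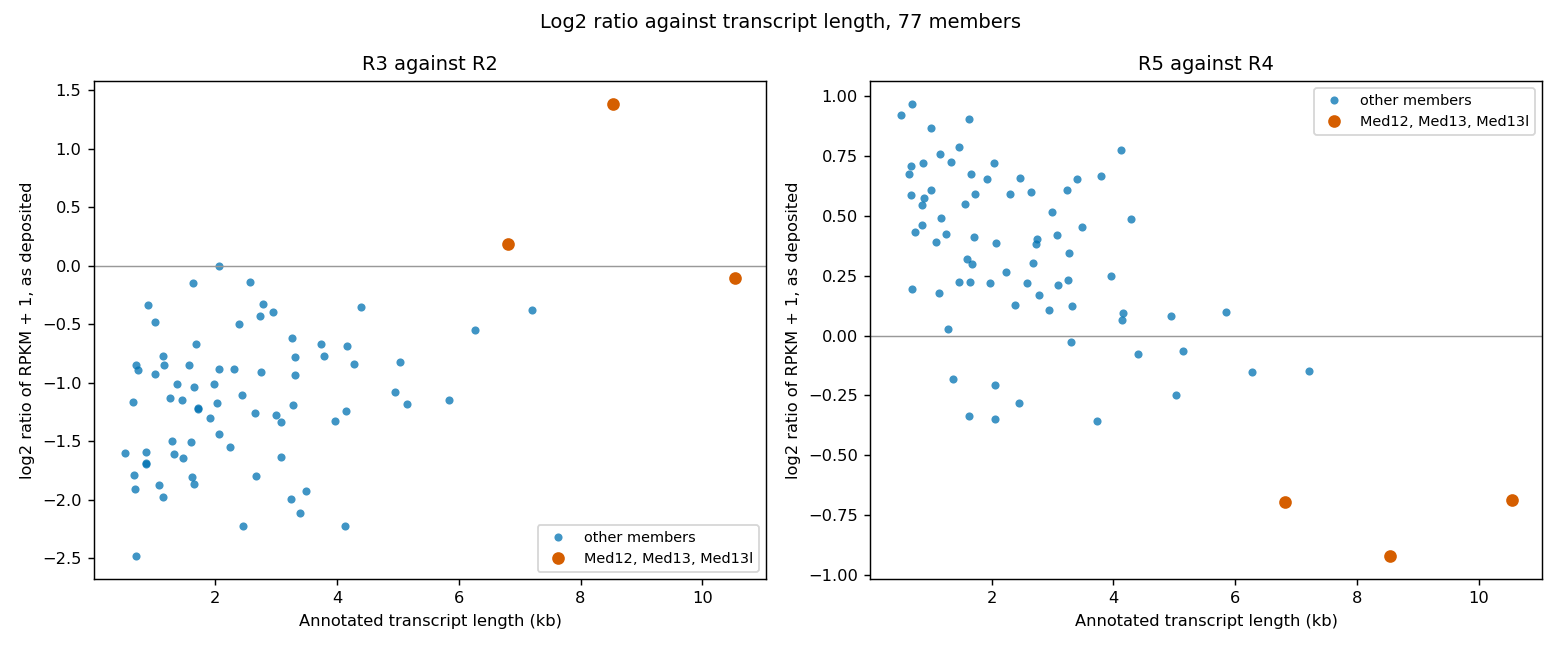
Log2 ratio of RPKM + 1 as deposited (y axes) against annotated transcript length in kilobases (x axes) for 77 members, for R3 against R2 (left) and R5 against R4 (right). Longer transcripts tend to have lower ratios on the right and, more weakly, higher ratios on the left. The 3 kinase module genes (orange) lie above the other long members on the left and below them on the right.

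Core-promoter letters were counted in the 82 RefSeq promoter windows matched to 69 of the members, over 300 bases and on both strands. CCGGAAG was present in 30.5% of them, against 8.86% of all 32851 windows in the table and 18.9% of the 10230 windows of genes past the filter. AAGATGGC, the core of the YY1 motif, was present in 9.76%, against 2.75% and 4.92%. TATAAA was present in 14.6%, against 13.6% and 6.76%, and Polr2a was among the 12 genes that hold it. The GATA cores AGATAA and TGATAA were present in 7.32% and 3.66% of member windows. Their shares were 11.2% and 9.05% of all windows, and 6.41% and 4.24% of windows of genes past the filter. These shares describe letters in the windows and have no test.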

How the data were processed

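Polyadenylated RNA from 4 sorted fetal liver populations was sequenced as 1 library each, per the labels' protocols. The deposited tables hold 1 RPKM value, to 2 decimals, for each gene symbol. The build was mm9, per the submitters' processing notes; the aligner, counting program, strandedness, annotation and gene lengths are not given in the sources used. Each RPKM was compared as log2(RPKM + 1) over genes that reached 1 RPKM in some library, and 2-fold differences were counted. A pseudocount of 1 RPKM understates differences of low genes. With 1 library per population no test was made and depth sets the precision: 10 RPKM on a 1 kb transcript equals 229.6 reads at R2, 256 at R3, 274 at R4 and 207 at R5, and of the members past the filter, Polr2k alone had under 30 estimated reads in every library.

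Alternatives were a pseudocount of 0.1 or 5 RPKM, omission of the filter, a filter of 5 RPKM, median scaling, removal of globin genes, leaving out members with few reads, and leaving out R2 or R5. The members, complexes, partner genes and markers were chosen with earlier results of these data known. All polymerase, TFIID and general factor genes are named; in Mediator the 4 highest genes by mean RPKM, and in each comparison the 5 highest and 5 lowest members with at least 5 RPKM. Paralog pairs and the 3 highest and 3 lowest partners are also named, and Med1, Med14 and Med20 were named after their values were seen, as were the SL1 genes, Taf15, the members lowest in R5 and the longest members. Transcript length is the median over protein-coding transcripts of GENCODE M21 and may differ from the lengths the authors used. In that annotation the exons of 3 members (Taf9, Med12 and Med20) overlap another gene on the same strand and those of 22 on the opposite strand, where reads cannot be told apart without strand. The 22 include Taf10 (with Ilk), Polr2c (with Dok4), Med19 (with Tmx2 and Zdhhc5) and Med13 (with Brip1os). The calculation was tested on simulated reads with counting error alone. Differences were planted only in well-expressed genes, and no shift in globin share was simulated, so low genes and scaling were not covered. Python 3.11.15, numpy 2.4.6, pandas 2.3.3, scipy 1.17.1 and matplotlib 3.10.9 were used.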

Additional observations from a re-analysis of the deposited data

How the results depend on the processing

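The medians over all members kept their sign under the alternatives listed, but some group medians did not. Under median scaling the kinase module median turned from -0.68 to 0.81 for R5 against R2 (0.49 with globins removed) and from -0.46 to 0.36 for R4 against R3 (0.02 with globins removed), TFIID from 0.22 to -0.05 for R5 against R4, and, for R3 against R2, Med14 from -0.67 to 0.05 and the SAGA TAF paralogs from -0.78 to 0.05; the Mediator tail median for R5 against R4 moved from 0.34 to about 0. For R5 against R2 (71 lower, 0 higher, median -1.84), median scaling gave 7 lower, 2 higher and a median of -0.43, globin removal 27 lower and -0.72, a pseudocount of 5 RPKM a median of -1.19, and R5 against R3, with R2 not used, 13 lower and -0.66. For R3 against R2 (44 lower, 1 higher, median -1.12), median scaling gave 10 lower, 2 higher and -0.31, globin removal 13 lower and -0.41, and a pseudocount of 5 RPKM 27 lower. For R4 against R3 (37 lower), a pseudocount of 0.1 RPKM gave 64 lower and one of 5 RPKM 9, median scaling 0 and a median of -0.17, and globin removal 2. For R5 against R4 (0 lower, 1 higher), a pseudocount of 0.1 RPKM gave 2 lower and 8 higher; a pseudocount of 5 RPKM, a filter of 5 RPKM and leaving out members under 30 reads each gave 0 higher; median scaling gave 3 lower and globin removal 1. Of 15 groups, 14 had a median at least 2-fold lower in R5 than in R2 as deposited, 1 after median scaling and 7 with globins removed. Under those 2 scalings the medians for R5 against R2 were -1.07 and -1.37 for RNA polymerase I, -0.78 and -1.07 for RNA polymerase III, and -0.44 and -0.72 for the partner genes. Leaving out the filter, or using R4 against R2, moved no count by over 1.5 times. Shares of all genes are given above only as deposited, after median scaling and with globins removed. Counts under the other settings, R5 against R3 included, have no all-gene share beside them and do not set the members apart. Median scaling and globin removal change each library's total by construction; for the other alternatives the cause was not tested. No paired analysis was possible because each population has 1 library.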

Other observations

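Polr2m, a subunit of a Mediator-dependent form of RNA polymerase II, is listed under its older symbol Grinl1a and so is no member by the symbol rule. It had 78.1 RPKM at R2, 27.3 at R3, 7.32 at R4 and 13.3 at R5. Its log2 ratio for R5 against R2 was -2.47 as deposited and -0.92 after median scaling, within the range of the stalk and cleft subunits Polr2d, Polr2g and Polr2b. The assembly factors and C-terminal domain phosphatases of RNA polymerase II had a median log2 ratio of -2.05 for R5 against R2. As deposited 7 of 7 were lower by 2-fold or more, where 76.9% of all genes were. After median scaling 3 of the 7 were, against 13.7%, and with globins removed 4, against 29.8%. Among the 7, Gpn1, a GTPase that brings the polymerase into the nucleus, had 21.7 RPKM at R2, 3.71 at R3, 1.38 at R4 and 2.72 at R5. The SAGA component Ccdc101 had 39.7 RPKM at R2, 16.2 at R3, 4.81 at R4 and 12.6 at R5, a log2 ratio of 1.23 for R5 against R4. Polr3b, the RNA polymerase III counterpart of Polr2b, had 10.8 RPKM at R2, 3.20 at R3, 3.16 at R4 and 2.81 at R5, so that R4 was close to R3 there.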
